A study of Mus musculus with 12 samples.

Results

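The 9 mouse mammary tumours of the series fell into 2 classes by their level of Cdkn1a, the gene of the cyclin-dependent kinase inhibitor p21. The classes were chosen by the measured Cdkn1a count itself: a tumour was Cdkn1a-high when Cdkn1a made up at least 14 of every 1e+06 counts assigned to genes (CPM), and Cdkn1a-low below that. Tumours 1, 5, 21 and 27 were Cdkn1a-high and tumours 4, 14, 17, 20 and 24 were Cdkn1a-low, so 4 and 5 of the 12 libraries of the series entered the comparison. The other 3 libraries were wild-type epithelium enriched from mammary glands and are given as a reference only. Their titles carry another prefix than those of the tumours, so tissue and whatever that prefix marks cannot be told apart. The tumours had the genotype Trp53R245W/+, 1 allele of the tumour suppressor gene Trp53 carrying the missense change R245W, which the series title calls somatic, and every animal was a female C57BL/6J X BALB/cJ F1 hybrid. The mutation is thus shared by both classes, and its effect cannot be read from a comparison between them. The labels name no promoter, Cre line, age or treatment, and leave unsaid whether the tumours are from separate animals.

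p21 binds cyclin-dependent kinases and halts the cell cycle before S phase, and it is the best known product of transcription by p53. When DNA is damaged or an oncogene is active, p53 escapes degradation by Mdm2 and switches on Cdkn1a along with genes of apoptosis, DNA repair and metabolism. Cdkn1a can also be transcribed without p53, through factors of the SP1, KLF, SMAD and RUNX families downstream of TGF-beta and other signals. In many tissues p21 is a marker of arrested or senescent cells, and it is also made in differentiating epithelium.

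Cdkn1a lies on the plus strand of mouse chromosome 17, at chr17:29090976-29100727 (GRCm38, GENCODE M21). RefSeq gives it 2 start sites with a promoter window in the reference table (GRCm38.p6). The 250 bases before each start are shown because the upstream one holds the only matches to the p53 motif and the downstream one the only matches to the GC box that SP1 and KLF proteins bind. Capitals mark those matches, which are p53 half-sites in the first sequence and GGGCGG in the second. Both strands were searched.
Cdkn1a upstream start, chr17:29090729-29090978, plus strand: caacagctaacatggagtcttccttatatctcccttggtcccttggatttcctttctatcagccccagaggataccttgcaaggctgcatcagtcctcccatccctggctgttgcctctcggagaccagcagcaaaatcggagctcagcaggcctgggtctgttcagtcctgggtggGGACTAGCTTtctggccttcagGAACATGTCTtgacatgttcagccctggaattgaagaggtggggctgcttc
Cdkn1a downstream start, chr17:29093519-29093768, plus strand: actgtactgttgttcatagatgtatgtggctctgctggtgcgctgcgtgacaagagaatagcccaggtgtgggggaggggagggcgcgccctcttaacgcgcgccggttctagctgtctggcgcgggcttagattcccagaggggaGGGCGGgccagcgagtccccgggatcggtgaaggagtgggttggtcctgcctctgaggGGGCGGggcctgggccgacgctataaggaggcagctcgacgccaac
The half-sites span bases -73 to -64 and -51 to -42 counted from the upstream start, and the GC boxes span -104 to -99 and -46 to -41 counted from the downstream start. A pair of half-sites at most 13 bases apart occurred in 24 of 32851 windows of the same length (250 before to 50 after a start) over the genome, or 0.0731%. Single half-sites occurred in the windows of 10 of the 34 p53 target genes that had one, Cdkn1a included (29.4%), against 8.46% of 12262 tested genes. GGGCGG, the GC box, was found in 79.4% of those target genes and in 63.7% of tested genes. The AP-1 motif TGANTCA was found in 5.88% and 6.78%, and in neither Cdkn1a window. These are letters in a window, not sites shown to be bound.

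Cdkn1a stood at 51.5, 18.1, 28.4 and 32.3 CPM in tumours 1, 5, 21 and 27, from 1729, 562, 623 and 858 counts. It stood at 4.72, 4.79, 8.64, 5.56 and 5.07 CPM in tumours 4, 14, 17, 20 and 24, from 93, 137, 206, 137 and 132 counts. The value just above the limit was that of tumour 5 and the value just below it that of tumour 17. The wild-type epithelium gave 23.9, 26.4 and 22.3 CPM, inside the range of the Cdkn1a-high tumours. These values define the classes, so they are given with no test. Rescaling by the trimmed mean of M values (TMM), used for every other CPM here, left each tumour in its class.

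**Figure D1:**
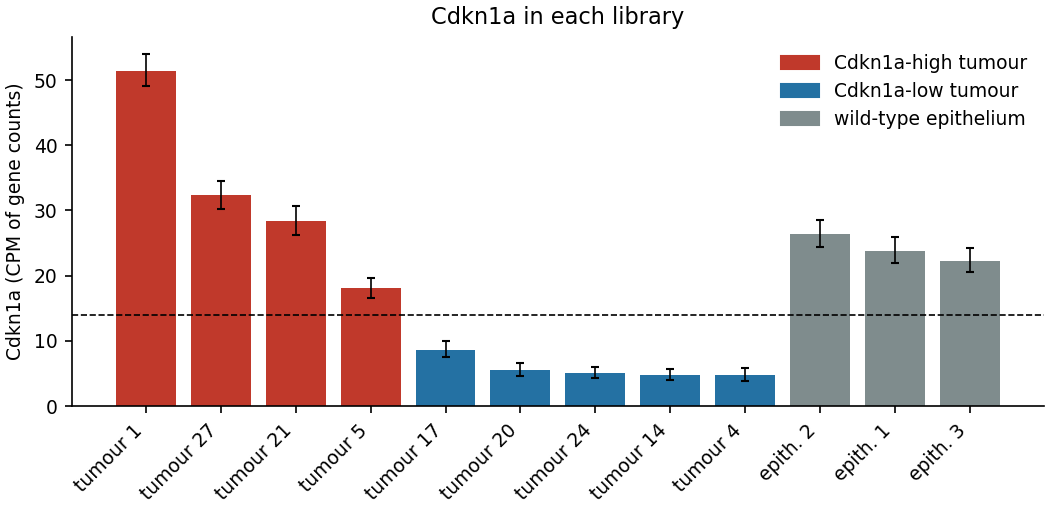
Cdkn1a in each of the 12 libraries in CPM, as bars coloured by class, with a line at the limit of 14 CPM. Tumours 1, 5, 21 and 27 stand above the line with the epithelium, and the other 5 tumours lie at 8.64 CPM or less.

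Libraries held 19695318 to 33600076 gene counts, so a count of 0 allows up to 3 counts, or 0.0893 to 0.152 CPM before rescaling. These limits cover counting error only. Tumour 4, a Cdkn1a-low tumour, stood apart: 52.0% of its alignments were not unique, and the noncoding RNA Rn7sk took 22.6% and mitochondrial genes 11.2% of its gene counts. Over the classes, Rn7sk took 2.41% ± 0.64 (SD, n = 4) of counts in Cdkn1a-high and 7.92% ± 8.26 (SD, n = 5) in Cdkn1a-low tumours (exact permutation test, two-sided p = 0.119, 0.476 adjusted over 4 shares). Tumour 24 was the 1 Cdkn1a-low tumour within the Cdkn1a-high range, and without it the classes did not overlap in Rn7sk share (exact permutation p = 0.0286, the smallest that 4 against 4 allows). Dropping the only overlapping tumour fixes that outcome, so this unadjusted p adds no evidence. No 2 tumour libraries were copies of each other. Alignments outside genes took 39.9% to 41.5% in the epithelium, above the 8.08% to 32.3% of the tumours. The epithelium libraries also held RNA of other cells, with 826 to 913 CPM of T and NK cell genes and 588 to 772 CPM of adipocyte genes. Levels in tumours and epithelium are compared under these limits. The summed level of 29 luminal epithelial genes was lowest in tumour 20 (1872 CPM) and highest in tumour 5 (14053 CPM), so mammary epithelial RNA was present in all 9 tumours. In bulk tissue, fewer cells of a type and less RNA per cell cannot be told apart.

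The genome-wide comparison asked which other genes differ with the Cdkn1a class. No gene passed the edgeR quasi-likelihood test at an adjusted p under 0.05, with 0 of 19148 higher (0%) and 0 lower (0%) and a smallest adjusted p of 0.190. At an unadjusted p under 0.05, 1414 genes were higher in the Cdkn1a-high tumours (7.38%) and 1118 lower (5.84%). For 427 genes (2.23%) every Cdkn1a-high tumour lay above every Cdkn1a-low tumour, and for 352 genes (1.84%) every one lay below. DESeq2 called 359 genes higher (1.87%) and 247 lower (1.29%) on the same counts, and all 606 had an edgeR p under 0.05 before adjustment. On counts simulated with edgeR's own fitted spread, 40 of DESeq2's 166 calls and 2 of edgeR's 97 were false. Because edgeR's model made those counts, they cannot rank the methods on the real ones. DESeq2 calls are given as an alternative only. There edgeR recovered 0%, 22%, 70% and 98% of genes changed 2-, 4-, 8- and 16-fold. The absence of edgeR calls thus does not show that the classes are alike. With the 3 epithelium libraries added to the fit to share its estimate of spread, edgeR called 33 of 21455 genes higher (0.154%) and 4 lower (0.0186%). With log2 Cdkn1a as a continuous term it called Cdh13 alone (0.00522%), without tumour 4 it called the predicted gene Gm25813 alone, and limma-voom called none. Over all tested genes the median log2 difference between the classes was -0.01, with 49.6% above 0. The adjusted p-values that follow are edgeR's unless DESeq2 is named, and counts of genes with p under 0.05 use the unadjusted p. No gene below is called by the edgeR test of the 9 tumours. The p-values measure association with the Cdkn1a class, and the spread behind them is that between tumours. In the fit with the 3 epithelium libraries added, it also takes in the spread between those.

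Of the 376 genes that were higher without overlap and had p under 0.05, tumour 1 held the highest value in 177, tumour 5 in 77, tumour 27 in 68 and tumour 21 in 54. Of the 305 such lower genes, tumour 4 held the highest value in 106, tumour 17 in 68, tumour 24 in 65, tumour 20 in 39 and tumour 14 in 27.

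The 10 higher genes described first are those with the smallest p among genes of at least 5 CPM and no overlap. In what follows, values are given in the order of tumours 1, 5, 21 and 27 for the Cdkn1a-high class and 4, 14, 17, 20 and 24 for the Cdkn1a-low class. B3gnt7, a glycosyltransferase that extends N-acetyllactosamine chains (chr1:86302832-86307305), measured 28.6, 38.9, 9.66 and 16.7 CPM in the Cdkn1a-high tumours and 1, 2.76, 3.09, 2.62 and 1.92 CPM in the Cdkn1a-low tumours (log2 fold change 3.33, SE 0.49, adjusted p = 0.19). The lowest Cdkn1a-high value, in tumour 21, was above every Cdkn1a-low value, and the epithelium measured 8.9, 15.5 and 6.15 CPM. Cdh13, a cadherin anchored to the membrane by a lipid, measured 376, 131, 92.5 and 148 CPM in the Cdkn1a-high tumours and 19.6, 19.1, 28.5, 34.3 and 16.3 CPM in the Cdkn1a-low tumours (log2 fold change 2.96, SE 0.44, adjusted p = 0.19). Tumour 1 was highest, and the other 3 Cdkn1a-high tumours lay close together. Zfp608, a zinc finger protein, ran from 38.2 to 77.3 against 7.08 to 16.9 CPM (log2 fold change 2.22, SE 0.35), with the epithelium at 48.6, 49.8 and 56.9 CPM, among the Cdkn1a-high tumours. St3gal1, a sialyltransferase that caps O-linked sugars, likewise ran from 27 to 76.8 against 7.81 to 19.3 CPM (log2 fold change 2.21, SE 0.38), with the epithelium at 94.4, 75.9 and 100.3 CPM.

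The focal adhesion protein tensin 4, from Tns4, measured 454, 206, 66 and 47.7 CPM in the Cdkn1a-high tumours and 9.4, 8, 19.2, 20.2 and 17.1 CPM in the Cdkn1a-low tumours (log2 fold change 3.68, SE 0.65). Tumours 1 and 5 were far above tumours 21 and 27, and the epithelium (6.47, 12.5 and 11.4 CPM) lay with the Cdkn1a-low tumours. Baiap2, an adaptor between membrane curvature and actin, ran from 134 to 344 against 33.5 to 69.2 CPM (log2 fold change 2.03, SE 0.35), and Bmp1, the protease that trims procollagen, from 131 to 520.3 against 39.6 to 92.6 CPM (log2 fold change 2.40, SE 0.43). For both, the epithelium was inside the Cdkn1a-low range, at 51.4, 60.3 and 61 CPM for Baiap2 and 68.8, 64.7 and 71.5 CPM for Bmp1. Sectm1b ran from 4.27 to 30.5 against 0.154 to 1.32 CPM and Vwa7 from 4.5 to 16.7 against 0.547 to 1.55 CPM, both with tumour 1 highest. Slc43a2, a transporter of large neutral amino acids, ran from 50.2 to 93.4 against 15.3 to 31 CPM, and here the epithelium (45.9, 54.6 and 51.8 CPM) was beside the lower Cdkn1a-high tumours. The adjusted p was 0.190 for each of the 10 genes, and each was called by DESeq2 and in the fit with all 12 libraries (adjusted p = 0.0465). Those calls use the same tumour counts that chose the genes, so they are not separate evidence.

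The 10 lower genes held 2 histone genes. Hist2h4, a histone H4 gene, measured 48.7, 59.2, 63.6 and 77.1 CPM in the Cdkn1a-high tumours and 284, 175, 358, 146 and 238 CPM in the Cdkn1a-low tumours (log2 fold change -1.96, SE 0.33, adjusted p = 0.19), and Hist2h2ac, a histone H2A gene, 26.1, 16.8, 17.5 and 33.2 CPM in the Cdkn1a-high tumours and 52.4, 53, 60.9, 64.5 and 84.6 CPM in the Cdkn1a-low tumours (log2 fold change -1.44, SE 0.31). Histone genes occur in near-identical copies, so their counts are uncertain. Rn7sk, which like most histone RNA has no poly(A) tail, took 1.76% to 3.26% of counts in Cdkn1a-high and 2.55% to 22.6% in Cdkn1a-low tumours, and its part in these genes was not tested. Prodh, the mitochondrial enzyme that starts proline breakdown, measured 13, 9.63, 10.5 and 5.12 CPM in the Cdkn1a-high tumours and 15.2, 71.9, 69, 49.3 and 62.5 CPM in the Cdkn1a-low tumours (log2 fold change -2.50, SE 0.48). Tumour 4 lay just above the Cdkn1a-high tumours and the other 4 Cdkn1a-low tumours well above, while the epithelium (10.3, 10.5 and 10.3 CPM) was within the Cdkn1a-high range. Ccdc77 had a narrow spread, at 18.3, 17.6, 19 and 18.7 CPM in the Cdkn1a-high tumours and 35.1, 43.3, 40.2, 49.4 and 44.5 CPM in the Cdkn1a-low tumours (log2 fold change -1.22, SE 0.24), with the epithelium at 18, 15.5 and 17.6 CPM. It overlaps Kdm5a on the other strand, as Snx22 (6.97 to 10.2 against 19.3 to 66.6 CPM) overlaps Ppib, and the strand setting of the counting is not given in the sources used here.

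Limch1, a regulator of actomyosin, measured 3.99, 9.42, 13.2 and 11.7 CPM in the Cdkn1a-high tumours and 46.3, 16.6, 529, 179 and 177 CPM in the Cdkn1a-low tumours (log2 fold change -4.31, SE 0.95), highest in tumour 17. Fzd9, a Wnt receptor, measured 0, 0.525, 0.249 and 1.2 CPM in the Cdkn1a-high tumours and 21, 5.79, 121, 20.8 and 18.1 CPM in the Cdkn1a-low tumours (log2 fold change -6.23, SE 1.29), and the epithelium, at 0.277, 0.626 and 0.304 CPM, lay with the Cdkn1a-high tumours. The Cdkn1a-high values of Fzd9 rest on few counts, so the size of its fold change depends on the prior count. The secreted protein gene Cytl1 measured 0, 0.035, 0.0829 and 0 against 5.56, 2.57, 22.2, 5.27 and 0.231 CPM in the same order, which is at or under the limit that a count of 0 allows in all 4 Cdkn1a-high tumours. The epithelium had 15.8, 10.3 and 9.53 CPM of Cytl1. Dnajc28, of the J-domain chaperone family, ran from 3.01 to 5.39 against 7.85 to 23.1 CPM, and Cidec, which coats lipid droplets in fat cells, from 0.0332 to 0.497 against 0.692 to 10.4 CPM. DESeq2 called all 10 lower genes, and the fit with all 12 libraries called Hist2h4, Ccdc77 and Cytl1 of them, again on the tumour counts that chose them.

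**Figure D2:**
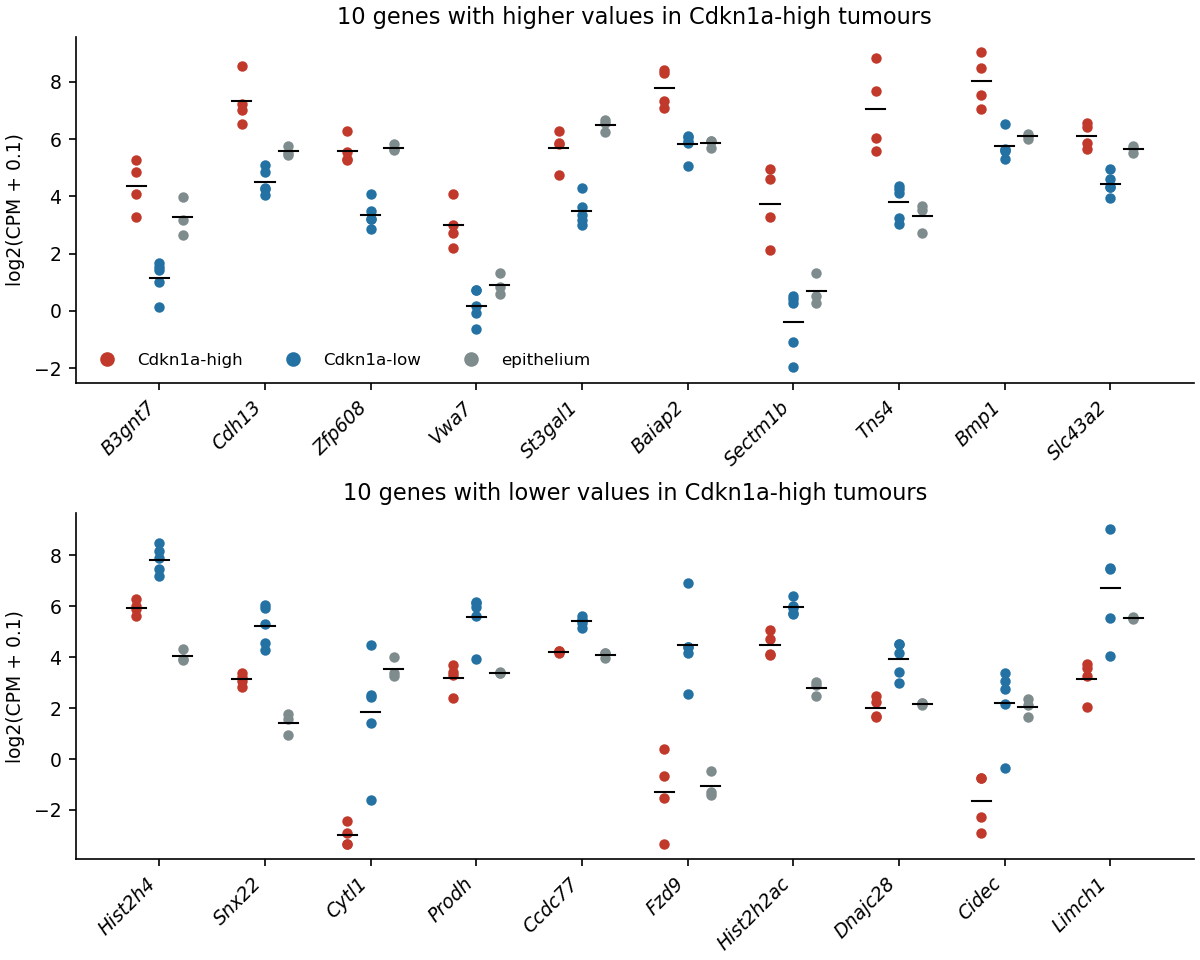
The 10 higher and 10 lower genes in each library, as log2 of CPM + 0.1 on the vertical axis, with points for Cdkn1a-high tumours, Cdkn1a-low tumours and epithelium. By the rule that chose them the tumour classes do not overlap, and the epithelium lies within the range of the Cdkn1a-high tumours for genes such as Prodh, Zfp608, Dnajc28 and Fzd9.

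Trp53 itself did not separate the classes, at 75.4, 44.6, 28.7 and 44.4 CPM in the Cdkn1a-high tumours and 18.5, 44.5, 49.1, 80.9 and 50.3 CPM in the Cdkn1a-low tumours (log2 fold change -0.03, SE 0.42, adjusted p = 0.981). The 75.4 CPM of tumour 1 and the 80.9 CPM of tumour 20, 1 in each class, were the highest levels, and the sign of the fold change turned with single tumours. Among 22 tested regulators of p53 the median log2 fold change was -0.29, or -0.10 without tumour 5, and 1 was higher with p under 0.05 (4.55%, against 7.38%). That gene was Hipk2, a kinase that phosphorylates p53, at 106, 70.2, 116 and 57.8 CPM in the Cdkn1a-high tumours and 39.8, 40.9, 23.4, 43.9 and 71.9 CPM in the Cdkn1a-low tumours (log2 fold change 0.98, SE 0.36, adjusted p = 0.315). Mdm2, the ligase that degrades p53 and is itself a p53 target, measured 58.8 ± 10.8 CPM (SD, n = 4) against 47 ± 13.1 CPM (SD, n = 5), with 36.2 to 67.5 CPM in the Cdkn1a-low tumours overlapping 44.9 to 70.0 CPM in the Cdkn1a-high ones (adjusted p = 0.651). Cdkn2a, whose p19Arf product restrains Mdm2 and whose p16 product inhibits Cdk4 and Cdk6, measured 119, 67, 20.4 and 17.5 CPM in the Cdkn1a-high tumours and 34.1, 22.4, 36.9, 40.6 and 43.6 CPM in the Cdkn1a-low tumours (log2 fold change 0.62, SE 0.53). Tumour 1 set that difference, which was -0.04 without it. In the epithelium Cdkn2a was at 0.381, 0.243 and 0.135 CPM, near the limit of a count of 0.

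Of 44 genes known to be activated by p53, Cdkn1a not counted, none was called by edgeR, 7 were higher with p under 0.05 (15.9%, against 7.38% of all genes), and none was lower (5.84% of all genes). This list is not complete, and Igfbp3 and Serpinb5, named below as p53 targets, are not in it. The fold change was above 0 in 30 of the 44, and their median was 0.42 against -0.01 for all genes. Without tumour 27 the median was 0.11. The summed CPM of the 44 genes was 1738 to 3199.9 CPM in the Cdkn1a-high tumours and 1057 to 1689 CPM in the Cdkn1a-low tumours, which did not overlap, and 2106 to 2624 CPM in the epithelium. DESeq2 called 1 target of the list, Plk3, and the number of listed targets with p under 0.05 ran from 5 without tumour 1 to 9 without tumour 5.

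Plk3, a stress-activated kinase, measured 66.9, 40.8, 19.9 and 9.77 CPM in the Cdkn1a-high tumours and 4.01, 14.7, 10.8, 9.62 and 8.07 CPM in the Cdkn1a-low tumours (log2 fold change 1.84, SE 0.55, adjusted p = 0.282, DESeq2 adjusted p = 0.0458). Tumours 1, 5 and 21 exceeded all 5 Cdkn1a-low tumours, and tumour 27 did not. Sesn2, a sestrin that lowers mTORC1 activity under stress, measured 28.7, 13.2, 15.3 and 32.2 CPM in the Cdkn1a-high tumours and 3.56, 10.4, 5.85, 12.2 and 9.61 CPM in the Cdkn1a-low tumours (log2 fold change 1.41, SE 0.44, adjusted p = 0.294). It was the 1 target of the list without overlap (2.27% of the 44, against 2.23% of all genes). The death receptor gene Tnfrsf10b measured 77.2, 32.2, 17.5 and 19.97 CPM in the Cdkn1a-high tumours and 24.2, 14.7, 9.07, 11.2 and 11.2 CPM in the Cdkn1a-low tumours (log2 fold change 1.35, SE 0.49), highest in tumour 1, without which the log2 fold change was 0.71. The other 4 targets with p under 0.05 were Abcb1a, a drug efflux pump (log2 fold change 1.54, SE 0.56), Zmat3, an RNA-binding protein (log2 fold change 0.97, SE 0.37), Polk, a translesion polymerase (log2 fold change 0.95, SE 0.39), and Apaf1, the scaffold of the apoptosome (log2 fold change 0.80, SE 0.34). These 7 were chosen for description after their values were seen.

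The 6 targets with the highest mean CPM in tumours were chosen without regard to the difference, and none had p under 0.05. Ccng1, cyclin G1, measured 76.4, 52.3, 91.6 and 269 CPM in the Cdkn1a-high tumours and 97.4, 65.4, 72.4, 36.3 and 53.4 CPM in the Cdkn1a-low tumours (log2 fold change 0.90, SE 0.49, adjusted p = 0.443), and without tumour 27 the log2 fold change was 0.16. Plk2 measured 154, 88.1, 46.3 and 514 against 112, 63, 104, 153 and 51.8 CPM, again with tumour 27 highest, and its sign turned without it. Perp, a desmosomal protein that acts in apoptosis, ran from 36.8 to 308 against 23 to 236 CPM, the membrane protein gene Cd82 from 87.7 to 269.6 against 25.9 to 177 CPM, and the sulfatase gene Sulf2 from 53 to 513 against 72.4 to 415 CPM. Ei24 was level, at 77.3 ± 17.2 CPM (SD, n = 4) against 76.5 ± 10.8 CPM (SD, n = 5). Classic damage response targets also lay near 0, such as Bax (log2 fold change -0.21, SE 0.40), Btg2 (log2 fold change -0.05, SE 0.46), Rrm2b (log2 fold change -0.05, SE 0.30), Xpc (log2 fold change -0.14, SE 0.32) and Sesn1 (log2 fold change 0.18, SE 0.51). Btg2 stood at 513 CPM in the epithelium against 29.9 and 30.9 CPM in the 2 classes. Below 0 were the apoptosis genes Fas (log2 fold change -1.35, SE 0.77) and Bbc3 (log2 fold change -0.31, SE 0.40), and Rps27l (log2 fold change -1.05, SE 0.51), which encodes a ribosomal protein variant.

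**Figure D3:**
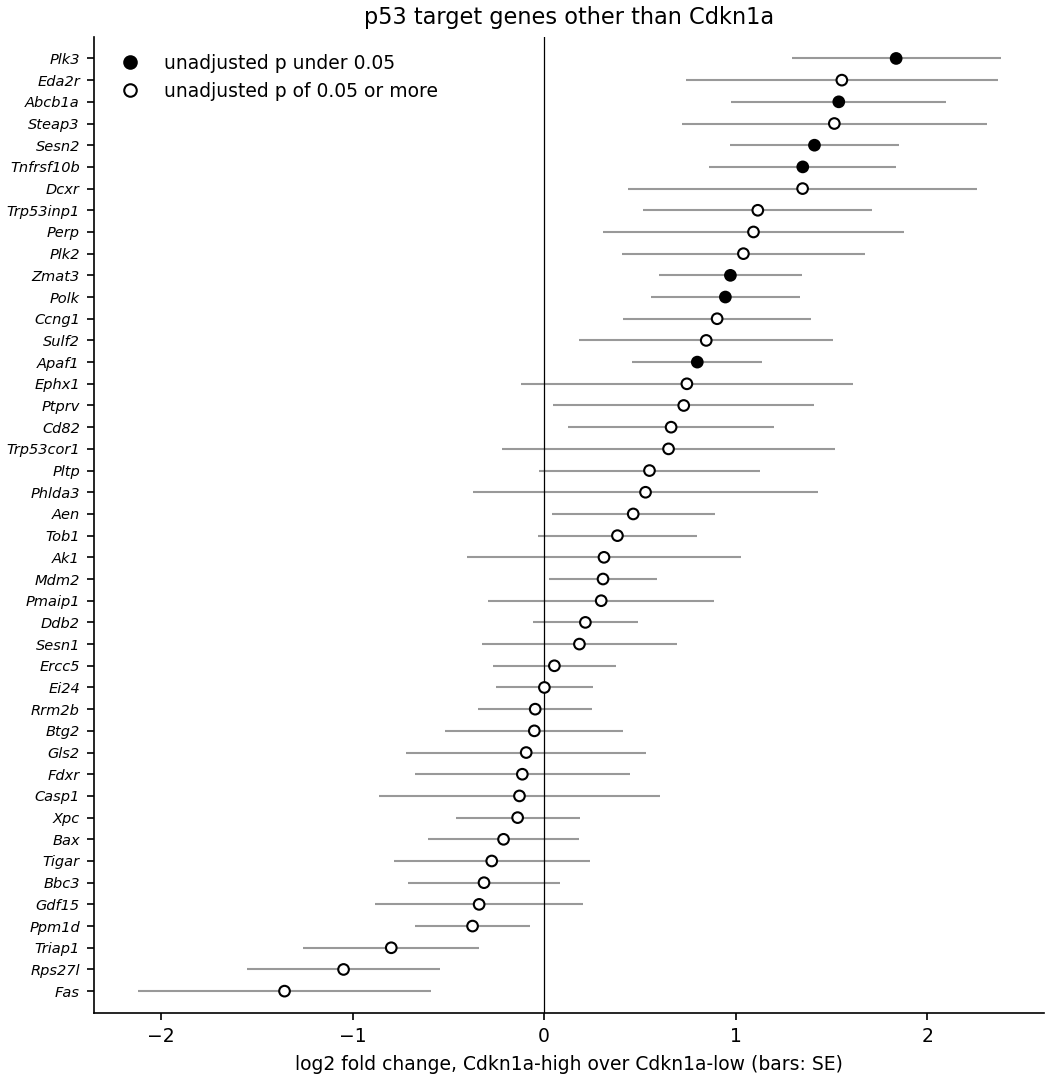
Log2 fold change (Cdkn1a-high over Cdkn1a-low, bars are SE) of the 44 p53 targets other than Cdkn1a, ordered by size. Filled points have unadjusted p under 0.05, 7 genes all above 0, and 30 of the 44 lie above 0.

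Col2a1, the fibrillar collagen of cartilage (chr15:97975602-98004695), was low in most Cdkn1a-high tumours and higher in most Cdkn1a-low ones, with an exception in each class. It measured 3.79, 1.68, 82.8 and 1.34 CPM in the Cdkn1a-high tumours and 61.5, 5.46, 38.3, 43.8 and 61.8 CPM in the Cdkn1a-low tumours (log2 fold change -0.91, SE 1.18, adjusted p = 0.765). The highest level of all 9 tumours was that of tumour 21, a Cdkn1a-high tumour, and tumour 14 was the 1 Cdkn1a-low tumour near the Cdkn1a-high ones. Without tumour 21 the log2 fold change was -4.24, with an adjusted p of 0.233. The epithelium had at most 0.139 CPM.

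Of 26 cartilage genes 21 were tested, and 4 had p under 0.05 as higher (19.0%, against 7.38%) and 3 as lower (14.3%, against 5.84%). The median log2 fold change was -0.06, and it ran from -0.91 without tumour 21 to 0.30 without tumour 1. The lower ones were Cytl1, Comp and Col11a1. Comp, a matrix glycoprotein of cartilage and tendon, measured 2.03, 2.49, 4.89 and 0.145 CPM in the Cdkn1a-high tumours and 48.6, 12.7, 572, 17.3 and 31.9 CPM in the Cdkn1a-low tumours (adjusted p = 0.248), without overlap, and tumour 17 held the highest value. Col11a1, a minor fibrillar collagen that assembles with type II collagen, measured 29.4, 77, 264 and 266 CPM in the Cdkn1a-high tumours and 289, 506, 475, 1052 and 148 CPM in the Cdkn1a-low tumours (log2 fold change -1.63, SE 0.73, adjusted p = 0.372). Among the higher ones, Acan, the large cartilage proteoglycan, measured 31.8, 19.4, 23.9 and 2.03 CPM in the Cdkn1a-high tumours and 6.48, 0.559, 0.339, 0.442 and 1.08 CPM in the Cdkn1a-low tumours (log2 fold change 3.44, SE 1.03, adjusted p = 0.286). Sox9, the regulator that switches on Col2a1 and Acan, measured 128, 50.9, 77.3 and 86.7 CPM in the Cdkn1a-high tumours and 61.8, 30.3, 22.3, 10.5 and 3.27 CPM in the Cdkn1a-low tumours (log2 fold change 1.72, SE 0.68, adjusted p = 0.333), so Acan and Sox9 stood on the opposite side from Col2a1, Comp and Col11a1. Sox9 is also a gene of mammary progenitor cells. Matn4 and Chst3 were the other higher members (log2 fold change 2.25, SE 0.66 and log2 fold change 1.96, SE 0.67). Col9a1 and Col9a3, of type IX collagen, ran from 0.465 to 198 against 7.9 to 1077 CPM and from 2.93 to 173 against 46.6 to 300.4 CPM, with tumour 1 lowest for both. The summed CPM of the list was 260.3 to 1004 CPM in the Cdkn1a-high tumours and 797 to 2677 CPM in the Cdkn1a-low tumours.

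The cell cycle, which p21 restrains, was next. In a list of 28 mitotic genes the fold change was below 0 in 27, the median was -0.85, and 7 genes were lower with p under 0.05 (25%, against 5.84% of all genes) and none higher. None was called by edgeR or DESeq2. Kif11, the motor that separates spindle poles, measured 65.6, 67.5, 32.1 and 42.1 CPM in the Cdkn1a-high tumours and 93.7, 78.3, 86.2, 162 and 304 CPM in the Cdkn1a-low tumours (log2 fold change -1.50, SE 0.46, adjusted p = 0.29), without overlap. Mki67, the proliferation marker, measured 339, 429.7, 202 and 402 CPM in the Cdkn1a-high tumours and 368, 503, 581, 1046 and 1820.5 CPM in the Cdkn1a-low tumours (log2 fold change -1.35, SE 0.50, adjusted p = 0.319), and tumour 4, at 368 CPM, lay among the Cdkn1a-high tumours. Tumour 24 had the highest values of both genes, and without it the log2 fold change of Mki67 was -0.89. Nusap1 and the centromere histone gene Cenpa were lower on average as well (log2 fold change -1.12, SE 0.39 and log2 fold change -1.12, SE 0.39), with overlap. The summed CPM was 1073 to 2296 CPM in the Cdkn1a-high tumours and 1939 to 6168 CPM in the Cdkn1a-low tumours, against 296 to 447 CPM in the epithelium, so all 9 tumours exceeded the epithelium. By tumour, the sums did not follow the class throughout. Tumours 1 and 5, at 2256 and 2296 CPM, lay above tumours 4, 14 and 17, at 2090, 1939 and 2123 CPM. Tumours 20 and 24 were highest (3955 and 6168 CPM), and tumours 21 and 27 lowest (1073 and 1727 CPM). Without tumour 24 the median of the list was -0.47.

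In the list of 28 DNA replication genes 1 was lower with p under 0.05 (3.57%, against 5.84%), and the median was -0.42, or -0.07 without tumour 24. That gene was Rfc4, a subunit of the clamp loader, at 12.3, 9.49, 3.9 and 10.4 CPM in the Cdkn1a-high tumours and 40.3, 12.6, 15.4, 16.2 and 33 CPM in the Cdkn1a-low tumours (log2 fold change -1.41, SE 0.48, adjusted p = 0.309). Among 17 cyclins and kinases of G1 and S phase, 1 gene was lower with p under 0.05 (5.88%, against 5.84%), Ccna2, the cyclin of S phase, at 80.1, 64.1, 43.2 and 70.5 CPM in the Cdkn1a-high tumours and 86, 119.6, 96.4, 120.1 and 227 CPM in the Cdkn1a-low tumours (log2 fold change -1.02, SE 0.34, adjusted p = 0.309), without overlap. Ccnd1, cyclin D1, measured 887, 1063, 196 and 1326 CPM in the Cdkn1a-high tumours and 164, 198, 493, 744 and 63.6 CPM in the Cdkn1a-low tumours (log2 fold change 1.37, SE 0.71, adjusted p = 0.427), and tumour 21 was the 1 Cdkn1a-high tumour without a high level. The median of the 17 was -0.13, and above 0 without tumour 21 (0.10). Myc measured 223, 64.2, 55.1 and 38.8 CPM in the Cdkn1a-high tumours and 33.5, 155, 90.5, 212 and 174 CPM in the Cdkn1a-low tumours (log2 fold change -0.50, SE 0.61, adjusted p = 0.746), and tumours 1 and 20 were highest. Without tumour 1 the log2 fold change of Myc was -1.34.

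Among the 9 other CDK inhibitors and RB family genes, 2 were higher and 2 lower with p under 0.05 (22.2% each way, against 7.38% and 5.84% of all genes). Cdkn2b, the p15 inhibitor induced by TGF-beta, measured 138, 43.8, 22.6 and 17.8 CPM in the Cdkn1a-high tumours and 31.1, 12.1, 25.5, 18 and 4.73 CPM in the Cdkn1a-low tumours (log2 fold change 1.57, SE 0.68, adjusted p = 0.363), and without tumour 1 the log2 fold change was 0.60. Rbl2, the pocket protein p130 of resting cells, measured 63.8, 68.1, 66.2 and 61.1 CPM in the Cdkn1a-high tumours and 34.8, 42.4, 59.4, 25.1 and 44.5 CPM in the Cdkn1a-low tumours (log2 fold change 0.64, SE 0.28, adjusted p = 0.367), without overlap, and 95.7, 92.6 and 101 CPM in the epithelium. The phosphatase gene Cdkn3 (log2 fold change -1.70, SE 0.71, or -0.85 without tumour 4) and the p57 gene Cdkn1c (log2 fold change -2.59, SE 1.14) had lower means. Cdkn1b, the p27 inhibitor and a member of the same inhibitor family as p21, measured 76.2 ± 9.05 CPM (SD, n = 4) against 92 ± 21.5 CPM (SD, n = 5) (adjusted p = 0.642).

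Of 30 regulators of Cdkn1a transcription other than p53, 7 were higher with p under 0.05 (23.3%, against 7.38%), none was lower and the median was 0.21, or 0.11 without tumour 5 and 0.32 without tumour 21. Runx2, the RUNX factor of bone and of mammary progenitors, measured 64.2, 26, 48.3 and 10.7 CPM in the Cdkn1a-high tumours and 8.57, 8.13, 5.47, 9.69 and 2.77 CPM in the Cdkn1a-low tumours (log2 fold change 2.41, SE 0.54, adjusted p = 0.21, DESeq2 adjusted p = 0.00356), without overlap. Runx1 measured 332, 173, 219 and 99.9 CPM in the Cdkn1a-high tumours and 119, 60.8, 66.9, 50.5 and 57.5 CPM in the Cdkn1a-low tumours (log2 fold change 1.51, SE 0.39, adjusted p = 0.248), with tumour 4, at 119 CPM, above tumour 27. Klf4 measured 21.4, 27.9, 40.4 and 6.57 CPM in the Cdkn1a-high tumours and 7.94, 5.79, 13.3, 3.35 and 6.8 CPM in the Cdkn1a-low tumours (log2 fold change 1.68, SE 0.54), and in the epithelium it was higher than in any tumour, at 149, 180.4 and 138 CPM. Klf6, Klf5, Rara and Foxo1 were the others with p under 0.05 (1.43, 1.23, 1.41 and 0.71 as log2 fold changes). Stat3 ran from 319 to 780.0 against 172 to 905 CPM.

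TGF-beta signalling, 1 of the routes to Cdkn1a without p53, had 8 of 24 genes higher with p under 0.05 (33.3%, against 7.38% of all genes) and none lower, and a median of 0.82. Id3, an inhibitor of differentiation factors induced by BMP signals, measured 37.8, 22.3, 18.2 and 38 CPM in the Cdkn1a-high tumours and 7.3, 4.94, 10.8, 9.65 and 4.42 CPM in the Cdkn1a-low tumours (log2 fold change 1.95, SE 0.39, adjusted p = 0.207), without overlap. The ligand gene Tgfb1 measured 67.1, 30.2, 31.3 and 18.1 CPM in the Cdkn1a-high tumours and 17, 16, 15.4, 12.5 and 15.3 CPM in the Cdkn1a-low tumours (log2 fold change 1.25, SE 0.37, adjusted p = 0.281, log2 fold change 0.80 without tumour 1), also without overlap, though tumour 27 was just above tumour 4. Bmp4 measured 5.39, 2.07, 5.14 and 1.02 against 0.456, 1.02, 0.805, 0.663 and 0.461 CPM (log2 fold change 2.29, SE 0.56). Inhba, Bmp2, Tgfbr2, Ltbp1 and Tgfbi were the other 5, with log2 fold changes of 1.37 to 1.81. Skil, a repressor of SMAD proteins and the member with the highest mean CPM, ran from 168 to 333 against 109.8 to 433 CPM.

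Immediate early and AP-1 genes had 8 of 18 members higher (44.4%, against 7.38%) and 1 lower (5.56%, against 5.84%) with p under 0.05 and a median of 0.83. Dusp1, a phosphatase that ends MAP kinase signals, measured 36.6, 33, 32.6 and 17.8 CPM in the Cdkn1a-high tumours and 6.84, 11.7, 18.4, 6.78 and 11.7 CPM in the Cdkn1a-low tumours (log2 fold change 1.42, SE 0.38, adjusted p = 0.248). Fosl1, an AP-1 subunit, measured 45.8, 22.6, 3.4 and 0.181 against 0.182, 0.922, 1.14, 0.295 and 1.58 CPM, high in tumours 1 and 5 and near 0 in tumour 27. Junb ran from 74.5 to 317 against 40.4 to 120.4 CPM (log2 fold change 1.26, SE 0.45). Nr4a1, an orphan nuclear receptor, was on the opposite side, at 18.4, 27, 30.2 and 13.4 CPM in the Cdkn1a-high tumours and 29.5, 69.4, 110.0, 67 and 122 CPM in the Cdkn1a-low tumours (log2 fold change -1.85, SE 0.44, adjusted p = 0.233), and DESeq2 called it lower. The summed level of the list was 5085 to 7362 CPM in the epithelium, above the 408 to 1130 CPM of all 9 tumours. It overlapped between the classes, at 449 to 1130 CPM in the Cdkn1a-high and 408 to 1012 CPM in the Cdkn1a-low tumours. Tumour 27 lay below tumours 14, 17 and 24, and every member of the list overlapped.

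Of 27 tested genes of the secretion that accompanies senescence, 10 were higher with p under 0.05 (37%, against 7.38%), none was lower, and the median was 1.33. Without tumour 1 the median was 0.82. The summed CPM did not overlap, at 4454 to 8532 CPM in the Cdkn1a-high tumours and 1168 to 3275 CPM in the Cdkn1a-low tumours, but the mean log2 level of the members, in which abundant genes weigh no more than others, did. Igfbp3, an IGF-binding protein and itself a p53 target, measured 404, 609, 517 and 2088 CPM in the Cdkn1a-high tumours and 247, 101, 177, 208 and 102 CPM in the Cdkn1a-low tumours (log2 fold change 2.43, SE 0.55, adjusted p = 0.21), without overlap, and the log2 fold change was 1.59 without tumour 27. Plaur, the urokinase receptor, measured 78, 66.3, 26.9 and 11.6 CPM in the Cdkn1a-high tumours and 5.93, 10.9, 9.92, 7.11 and 21.4 CPM in the Cdkn1a-low tumours (log2 fold change 2.02, SE 0.57, adjusted p = 0.263), and the EGF receptor ligand gene Areg 24.1, 21.8, 1.62 and 68.3 CPM in the Cdkn1a-high tumours and 2.92, 0.889, 3.94, 2.03 and 0.384 CPM in the Cdkn1a-low tumours (log2 fold change 3.82, SE 0.95, adjusted p = 0.248). Tumour 21 did not share the Areg level of the other 3 Cdkn1a-high tumours. Igfbp5, with the highest mean CPM of the list, measured 467, 5280.1, 4266 and 3182 CPM in the Cdkn1a-high tumours and 1136, 2592, 880.0, 212 and 568 CPM in the Cdkn1a-low tumours (log2 fold change 1.61, SE 0.76, adjusted p = 0.395), and there tumour 1 was low. Plau, Ereg, Igfbp7, Il1a, Igfbp4, Cxcl2 and Vegfa completed the 10. Il6 and Csf2 did not reach the count needed for the test. Fibroblasts and macrophages also make such factors. Fibroblast markers summed to 3054 to 44828 CPM in the Cdkn1a-high tumours and 4062 to 6695 CPM in the Cdkn1a-low tumours and macrophage markers to 3494 to 5933 CPM in the Cdkn1a-high tumours and 1289.7 to 5549.9 CPM in the Cdkn1a-low tumours, both with overlap. Their part in these genes was not tested.

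NRF2 targets, the antioxidant genes, had 7 of 15 members higher with p under 0.05 (46.7%, against 7.38%), none lower and a median of 0.72, or 0.46 without tumour 27. Gsr, glutathione reductase, measured 204, 198, 74 and 99.1 CPM in the Cdkn1a-high tumours and 29.2, 37.3, 48.8, 24.4 and 42.6 CPM in the Cdkn1a-low tumours (log2 fold change 1.96, SE 0.36, adjusted p = 0.19), without overlap. Slc7a11, the cystine transporter, measured 11.7, 27.8, 12 and 6.75 CPM in the Cdkn1a-high tumours and 3.19, 5.43, 4.53, 5.01 and 1.38 CPM in the Cdkn1a-low tumours (log2 fold change 1.87, SE 0.52, adjusted p = 0.261), also without overlap, and heme oxygenase Hmox1 74, 97.4, 104 and 33.8 against 11.2, 19.1, 23.5, 15 and 67.7 CPM (log2 fold change 1.49, SE 0.55). Txnrd1, thioredoxin reductase, ran from 125 to 293 against 65 to 224 CPM. The integrated stress response, which also drives Slc7a11 and Sesn2, was split. In that list 4 of 24 genes were higher and 4 lower at p under 0.05 (16.7% each way, against 7.38% and 5.84% of all genes). The lower ones were the serine and cysteine synthesis genes Phgdh (-1.32), Psat1 (-1.42) and Cth (-1.48), and the lipoprotein receptor gene Vldlr (-0.93, as log2 fold changes). Without overlap, 2 of the 24 were higher and 1 lower (8.33% and 4.17%, against 2.23% and 1.84% of all genes).

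Receptor kinases and their ligands had 7 of 28 genes higher with p under 0.05 (25%, against 7.38%), none lower and a median of 0.76, or 0.41 without tumour 21. Besides Areg they were the ligand genes Nrg1 and Ereg and the receptor genes Egfr (log2 fold change 1.31, SE 0.47), Erbb2 (log2 fold change 1.11, SE 0.43), Axl and Ddr2. Nrg1, neuregulin 1, measured 57.3, 5.6, 19.2 and 83.7 CPM in the Cdkn1a-high tumours and 13.6, 5.83, 6.53, 9.17 and 4.77 CPM in the Cdkn1a-low tumours (log2 fold change 2.36, SE 0.68, adjusted p = 0.265), and tumour 5 did not share the level of the other Cdkn1a-high tumours. Ereg rested on the 41.4 CPM of tumour 1, and without it the log2 fold change was 0.68. Met was far higher in tumour 5 (15546 CPM) and tumour 24 (4887 CPM) than in the other 7 tumours (52.6 to 650.5 CPM). Those 2 tumours were in different classes, and the log2 fold change of Met was 1.77 with tumour 5 and -2.25 without it.

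Of 17 Wnt genes 7 were higher (41.2%, against 7.38%) and 1, Lef1, lower (5.88%, against 5.84%) with p under 0.05. The median was 0.93, or 0.48 without tumour 21, and the summed CPM did not overlap, at 558 to 664 CPM in the Cdkn1a-high tumours and 173 to 289 CPM in the Cdkn1a-low tumours. The members with high levels differed between tumours. Wnt7b measured 363, 296, 46.5 and 21.9 CPM in the Cdkn1a-high tumours and 20.8, 64.9, 13.5, 4.02 and 2.46 CPM in the Cdkn1a-low tumours (log2 fold change 3.07, SE 1.05), Wnt5a 12, 41.8, 12.9 and 77.9 against 6.93, 7.9, 13.8, 5.67 and 3.73 CPM (log2 fold change 2.24, SE 0.61), Wnt10a 43.6, 0.876, 0.954 and 4.07 against 0.73, 0.757, 0.508, 1.03 and 0 CPM and the secreted inhibitor gene Sfrp2 3.82, 3.89, 293 and 17.5 against 8.76, 4.25, 7.71, 4.94 and 4.3 CPM. Wnt7b was thus highest in tumours 1 and 5, Wnt5a in tumours 27 and 5, Wnt10a in tumour 1 and Sfrp2 in tumour 21. Without tumour 21 the log2 fold change of Sfrp2 was 0.48, and without tumour 1 that of Wnt10a was 1.70.

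**Figure D4:**
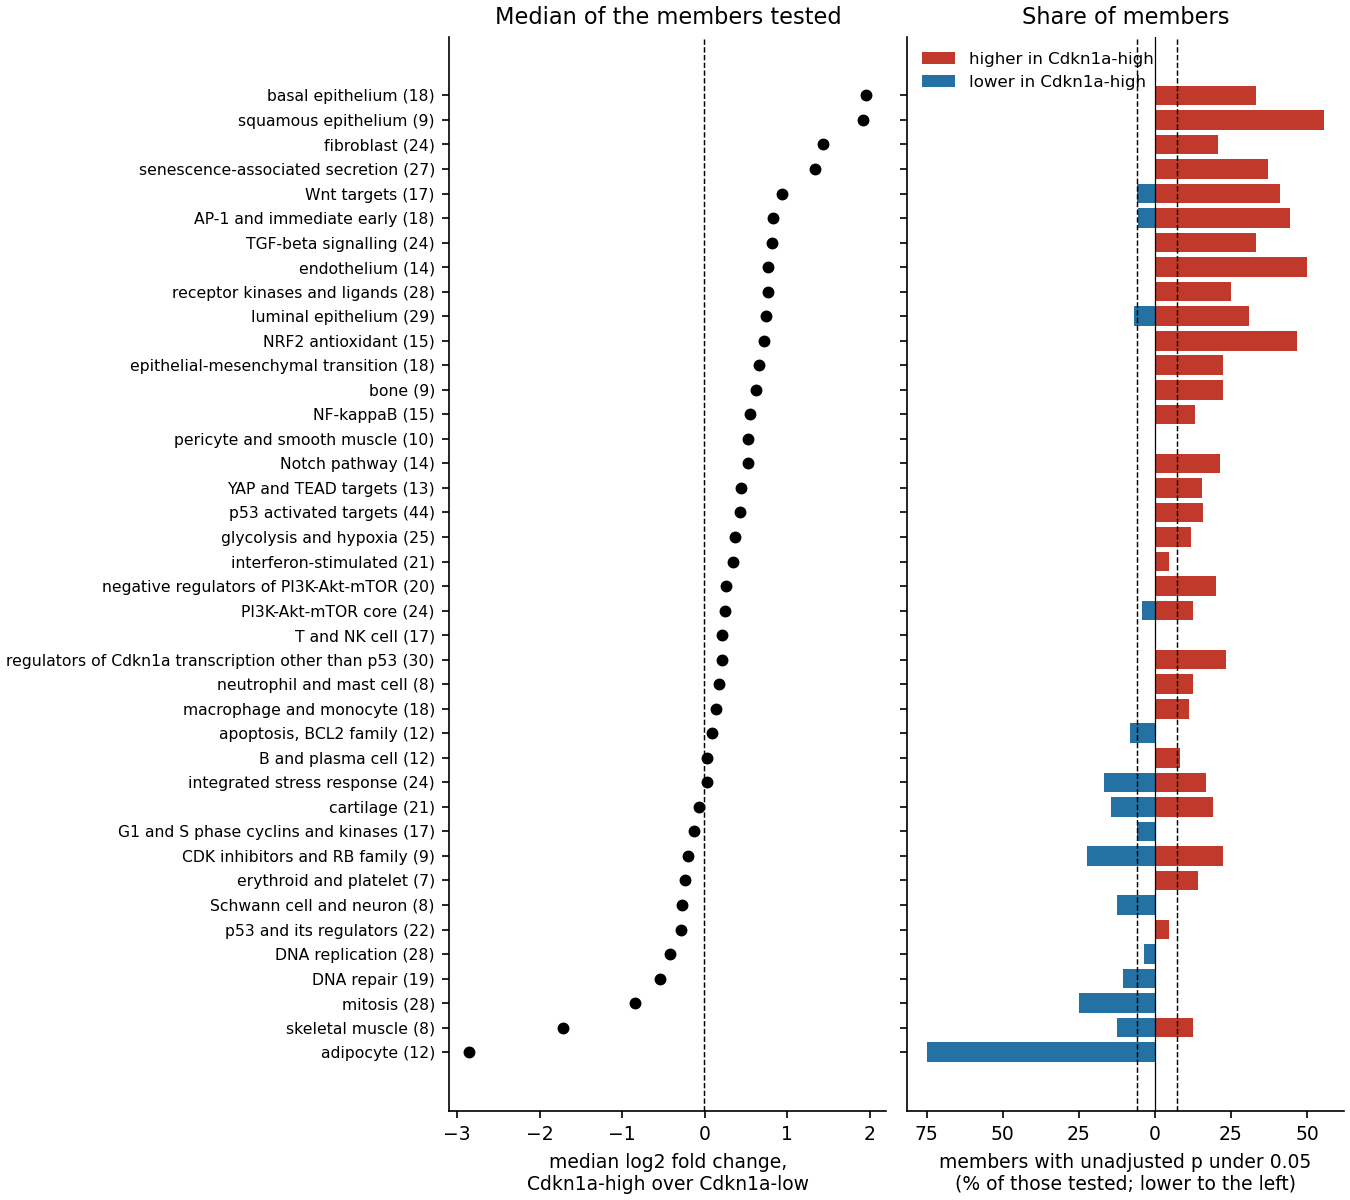
Left, median log2 fold change (Cdkn1a-high over Cdkn1a-low) of the tested members of each of 40 gene lists, members tested in brackets. Right, percent of members with unadjusted p under 0.05, higher to the right and lower to the left, with dashed lines at the shares over all genes, 7.38% higher and 5.84% lower. The basal list has the highest median, 1.96, and the adipocyte list the lowest, -2.85.

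Epithelial genes followed. Of 29 luminal genes 9 were higher (31.0%, against 7.38%) and 2 lower (6.90%, near the 5.84% of all genes) with p under 0.05, and the median was 0.75. The level of the list as a whole overlapped between the classes, with summed CPM of 3256 to 14053 in Cdkn1a-high and 1872 to 11128 in Cdkn1a-low tumours. As mean log2 levels, tumours 1 and 21 (4.96 and 5.11) lay below tumours 4, 14 and 17 (5.73, 5.94 and 6.18). Esr1, the estrogen receptor gene, measured 18.2, 8.34, 14.6 and 38.4 CPM in the Cdkn1a-high tumours and 4.01, 3.55, 4.24, 2.39 and 2.73 CPM in the Cdkn1a-low tumours (log2 fold change 2.55, SE 0.47, adjusted p = 0.19, DESeq2 adjusted p = 8.04e-05), without overlap, and was also called in the fit with all 12 libraries. All 9 tumours lay below the epithelium (95.6, 54.6 and 61.8 CPM). The keratin genes Krt19 (log2 fold change 3.60, SE 0.93) and Krt7 (log2 fold change 2.28, SE 0.77), the claudin gene Cldn4 (log2 fold change 2.70, SE 0.87), Aldh1a3 (log2 fold change 2.33, SE 0.62) and the pioneer factor gene Foxa1 (log2 fold change 3.4, SE 1.27) were also among the 9. The 2 lower genes were milk genes. Wap measured 0, 0.28, 0.0829 and 0.109 against 4.2, 26.9, 3.81, 0.332 and 3 CPM, at or near the limit of a count of 0 in the Cdkn1a-high tumours and in the epithelium, and Lalba was the other. Another milk gene, Csn3, did not follow, at 1.83, 1381, 33.6 and 1209.9 against 922, 355, 5340.3, 207 and 395 CPM, and its sign turned without tumour 17.

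Basal epithelial genes had 6 of 18 members higher with p under 0.05 (33.3%, against 7.38%) and none lower, with a median of 1.96. Itgb4, the integrin of hemidesmosomes, measured 785, 587, 219.7 and 130.3 CPM in the Cdkn1a-high tumours and 67.6, 143, 23.9, 92.9 and 30.2 CPM in the Cdkn1a-low tumours (log2 fold change 2.56, SE 0.65, adjusted p = 0.248). Tumour 1 was highest. Krt17 was led by tumour 27, at 24.2, 44.4, 61.5 and 415 against 7.48, 19, 8.98, 39.97 and 1.88 CPM (log2 fold change 3.14, SE 0.99), without which the log2 fold change was 1.47. Krt14, Krt6a and Lama3 were also among the 6. Itga6, the partner of Itgb4, was not higher, at 550.4 ± 221 CPM (SD, n = 4) against 669 ± 233 CPM (SD, n = 5). The median depended on tumour 27, without which it was -1.21. Of 20 squamous genes only 9 had counts enough for the test, and 5 of these were higher with p under 0.05 (55.6%, against 7.38%), among them Krt16 (9.91, 2.94, 31.5 and 2.76 against 0.182, 0.395, 0.254, 1.22 and 0.192 CPM), the desmoglein gene Dsg3 (12.4, 75.5, 11.4 and 15.1 against 3.74, 0.494, 7.67, 3.32 and 0.346 CPM) and Serpinb5, or maspin, a p53 target (52.1, 76.4, 39.8 and 89.9 against 46.2, 11.9, 25.1, 20.4 and 4.46 CPM). The other 11 squamous genes, such as those for loricrin and filaggrin, did not reach the minimum count in enough tumours to be tested. The Cdkn1a-high tumours alone could meet that minimum, as they did for Krt16. A gene let in this way tends to be counted as higher, so the 55.6% is no evidence of a class difference.

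Mesenchymal genes had 4 of 18 members higher with p under 0.05 (22.2%, against 7.38%), none lower and a median of 0.66. Vim, vimentin, measured 385, 329.9, 1092 and 470.4 CPM in the Cdkn1a-high tumours and 283, 200.2, 255, 286 and 243 CPM in the Cdkn1a-low tumours (log2 fold change 1.16, SE 0.38, adjusted p = 0.309), without overlap. Fn1, fibronectin, measured 4499, 1228, 12922 and 277 CPM in the Cdkn1a-high tumours and 504, 845, 1061, 463 and 728 CPM in the Cdkn1a-low tumours (log2 fold change 2.72, SE 0.87), and tumour 27 was below all 5 Cdkn1a-low tumours. Without tumour 21 the log2 fold change of Fn1 was 1.45 and that of Vim 0.62. Sparc measured 849, 582, 2701 and 2666 against 608, 379.6, 733, 714 and 399 CPM (log2 fold change 1.58, SE 0.51). The fibroblast list had 5 of 24 genes higher with p under 0.05 (20.8%, against 7.38%) and a median of 1.43, but 1 tumour carried it. Col3a1 measured 1618, 633, 17738 and 472 against 1813, 1016, 1883, 1578 and 919.6 CPM, Col5a1 392.2, 85, 1541 and 82.1 against 131, 110.3, 139, 126 and 140.3 CPM, Col6a1 672, 308, 1663 and 142 against 144, 176, 326, 266 and 166 CPM and the proteoglycan gene Dcn 34.5, 30.8, 661 and 556 against 128, 50.4, 61, 82 and 17.5 CPM. Tumour 21 was highest in each, and without it the median of the list was -0.10 and the log2 fold change of Col3a1 -0.70.

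Endothelial genes had 7 of 14 members higher with p under 0.05 (50%, against 7.38%), 4 without overlap (28.6%, against 2.23% of all genes), and a median of 0.77. Their summed CPM did not overlap, at 583 to 1046 CPM in the Cdkn1a-high tumours and 286 to 542 CPM in the Cdkn1a-low tumours, and 1275 to 1619 CPM in the epithelium. Vwf, von Willebrand factor, measured 66, 112, 52 and 258 CPM in the Cdkn1a-high tumours and 28.4, 38.2, 35.5, 16.7 and 14.7 CPM in the Cdkn1a-low tumours (log2 fold change 2.19, SE 0.51, adjusted p = 0.223). Pecam1, or CD31, measured 90.4, 105, 108 and 154 CPM in the Cdkn1a-high tumours and 75.8, 49.96, 79.8, 79.4 and 49.8 CPM in the Cdkn1a-low tumours (log2 fold change 0.76, SE 0.28, adjusted p = 0.318), and Robo4 17.7, 16.1, 17 and 18.7 against 8.12, 6.12, 12, 12.8 and 11 CPM (log2 fold change 0.78, SE 0.32). The other gene without overlap was Eng (log2 fold change 0.62, SE 0.27). Cdh5, VE-cadherin, overlapped, at 112, 138, 100.5 and 203 against 120.0, 43.1, 78.9, 90.3 and 55.2 CPM (log2 fold change 0.82, SE 0.36). Endothelial cells are known to express Cdh13, and the part of their number in the class difference was not tested.

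Adipocyte genes were the list farthest to the other side. Of 12 tested genes 9 were lower with p under 0.05 (75%, against 5.84%), none had a fold change above 0, and the median was -2.85. DESeq2 called 7 of the 12 lower, against 1.29% of all genes. The summed CPM did not overlap, at 48.5 to 65 CPM in the Cdkn1a-high tumours and 104 to 256 CPM in the Cdkn1a-low tumours, and all tumours lay below the epithelium (588 to 772 CPM). Fabp4, the fatty acid carrier of fat cells, measured 17.4, 13.4, 12.6 and 11.5 CPM in the Cdkn1a-high tumours and 91.8, 37.9, 29.7, 55.3 and 23.7 CPM in the Cdkn1a-low tumours (log2 fold change -1.82, SE 0.43, adjusted p = 0.229), and Car3 did not overlap either, nor did Cidec. Retn measured 0.0332, 0.14, 0 and 0 against 1.73, 2.01, 1.23, 0.368 and 0.0384 CPM, at or near the limit of a count of 0 in every Cdkn1a-high tumour. Retn and Cidec reached the minimum count for testing only through the Cdkn1a-low tumours. Genes let in this way tend to be counted as lower, so the 75% and the median of -2.85 may partly reflect the filter. Adipoq (-4.44) and Plin1 (-3.59, as log2 fold changes) were also lower on average. The share of fat cells in each tumour is not given by the labels, and its part in these values was not tested.

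Among immune lists, T and NK cell genes had none of 17 with p under 0.05, and their summed CPM was 6.71 to 59.3 CPM in the Cdkn1a-high tumours and 9.3 to 54.1 CPM in the Cdkn1a-low tumours, against 826 to 913 CPM in the epithelium. Macrophage genes had 2 of 18 higher (11.1%, near the 7.38% of all genes), of which Arg1, arginase 1, measured 119, 237, 72.9 and 359 CPM in the Cdkn1a-high tumours and 54.4, 18.7, 14.7, 6.23 and 29.1 CPM in the Cdkn1a-low tumours (log2 fold change 2.98, SE 0.65, adjusted p = 0.207), without overlap, and 2.8, 44.3 and 2.74 CPM in the epithelium. Apoe measured 1461, 2187, 2143 and 3419 against 1176, 1416, 1846, 621 and 780.1 CPM (log2 fold change 0.97, SE 0.42). The summed macrophage list overlapped between the classes. Over the 40 lists, the summed CPM was higher without overlap in 5 (p53 targets, senescence-associated secretion, Wnt, mesenchymal and endothelial genes) and lower without overlap in 1 (adipocyte genes). As mean log2 levels of the members, the p53, endothelial and adipocyte lists likewise had no overlap, while the senescence, Wnt and mesenchymal lists overlapped.

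**Figure D5:**
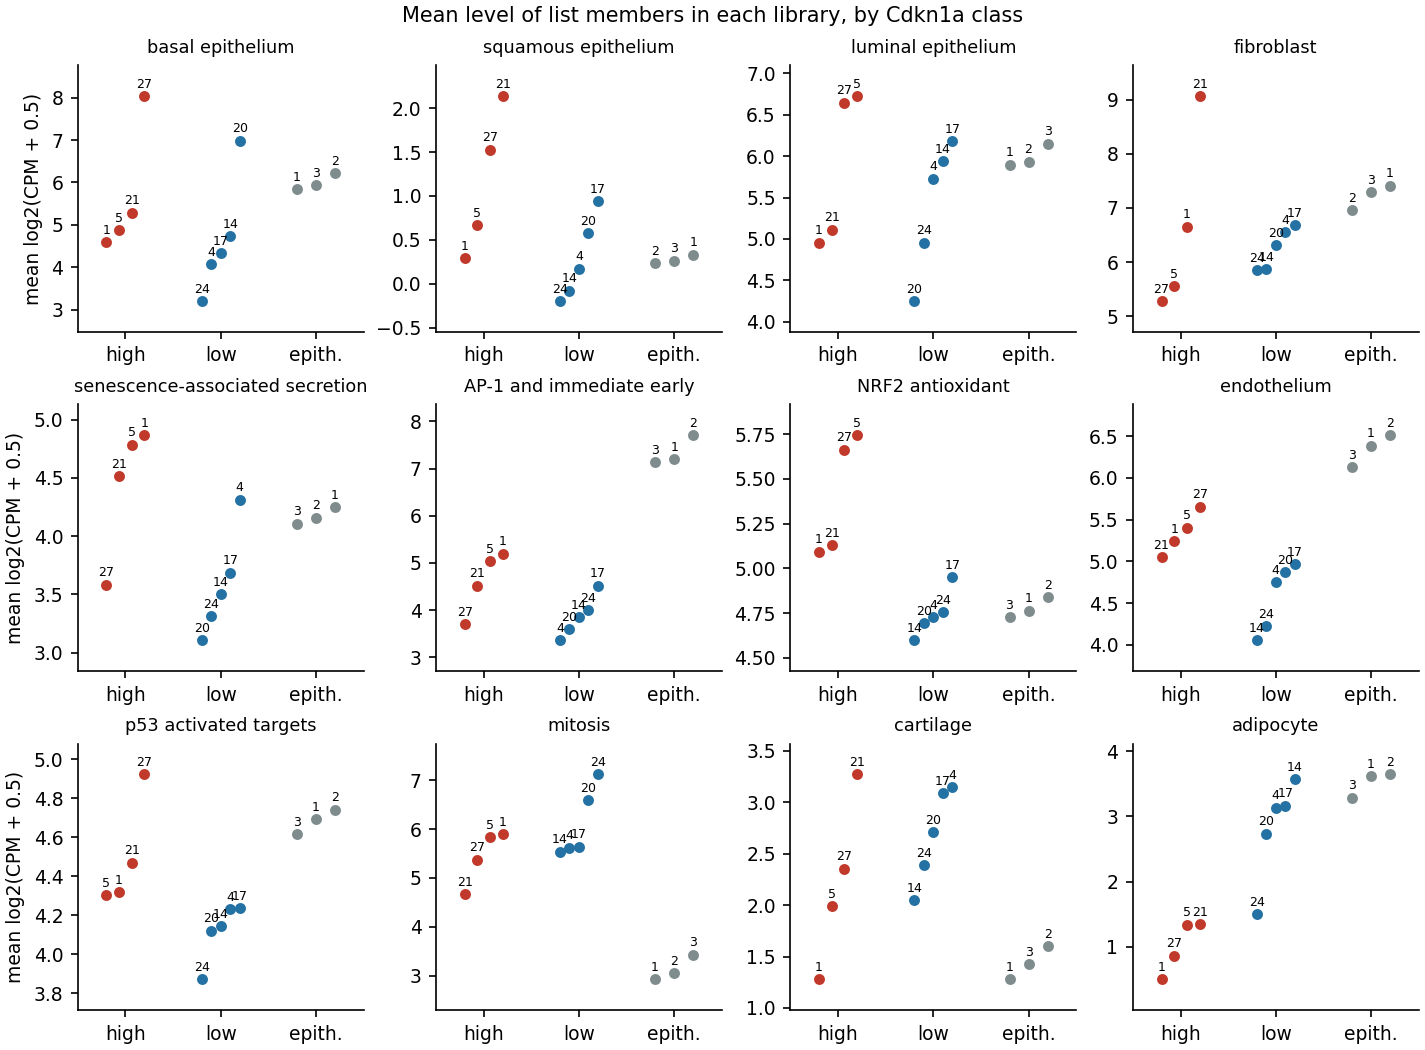
Level of gene lists in each library, as the mean of log2(CPM + 0.5) over the members, with points for Cdkn1a-high tumours, Cdkn1a-low tumours and epithelium. The p53 targets (Cdkn1a left out), NRF2 and endothelial lists are higher and the adipocyte list lower in all 4 Cdkn1a-high tumours than in all 5 Cdkn1a-low tumours.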

How the data were processed

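Total RNA of 9 tumours and 3 epithelium samples was isolated on RNeasy columns and sequenced as TruSeq stranded libraries, per the labels. The deposited values are raw counts per gene, made by the authors with FastQC 0.11.8, TopHat2 2.1.1 and HTSeq 0.11.0 on GRCm38, per the submitters' processing notes. Neither the annotation release nor the strand setting is given in the sources used here. Of 54658 gene rows 54106 matched a symbol in GENCODE M21. The 5 summary rows of each library were left out of library sizes.

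Classes came from Cdkn1a CPM over the sum of gene rows, with a limit of 14, and Cdkn1a was left out of the tested genes. Counts of the 9 tumours were fitted with the class alone in edgeR 4.0.16 (R 4.3.3; filterByExpr, TMM scaling, robust quasi-likelihood F test), and p-values were Benjamini-Hochberg adjusted over 19148 genes, with calls under 0.05. The filter asks for a minimum count in as many tumours as the smaller class holds, so 1 class alone can admit a gene. CPM shown are TMM-scaled over 12 libraries, without prior count. SE is the absolute log2 fold change divided by the root of the F statistic. DESeq2 1.42.0 gave no adjusted p for 721 genes. Other alternatives were limma-voom (limma 3.58.1), other scalings, filters, a continuous Cdkn1a term, all 12 libraries in 1 fit and leaving out each tumour. The scripts were tested on simulated data. Tables and plots used Python 3.11.15, pandas 2.3.3 and matplotlib 3.10.9.

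Members and gene lists were chosen with earlier results of these data known. Genes were named by a rule: Cdkn1a, Trp53, Mdm2, Ccng1, Cdkn2a, Col2a1, Myc and Met; the 10 genes per direction with the smallest p, a higher-class mean of 5 CPM or more, no overlap and no predicted, immunoglobulin, T cell receptor or mitochondrial name; 2 called genes per list, of which there were none; the 6 p53 targets and 3 cartilage genes besides Col2a1 with the highest mean CPM; and the member with the highest mean CPM of each described list. Up to 3 further members of a list with the smallest p under 0.05, and other members named as examples, were chosen after their values were seen. Promoter windows are those of RefSeq (GRCm38.p6), and 34 of 45 p53 target genes, Cdkn1a included, matched one. The p-values measure the spread between tumours, which the labels do not tie to separate animals. In the fit of all 12 libraries they also take in the spread between epithelium libraries.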

Additional observations from a re-analysis of the deposited data

Results flagged for a closer look

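In 7 of 108 groups tested, a single tumour lay far from the rest of its class by Dixon's ratio, the gap to the nearest tumour over the whole range of the class, both taken on log2(CPM + 0.5). The CPM printed here would give other ratios. Chance marks about 1 in 20 groups. Limits were 0.829 for 4 tumours and 0.710 for 5. In the Cdkn1a-low class, tumour 14 had Col2a1 at 5.46 CPM with the next tumour at 38.3 CPM (ratio 0.798). Tumour 4 was the low value for Baiap2 (33.5 CPM, next 58.0 CPM, ratio 0.755), Prodh (15.2 CPM, next 49.3 CPM, ratio 0.754) and Ei24 (57.9 CPM, next 76.7 CPM, ratio 0.740). Tumour 17 was the high value for Bmp1 (92.6 CPM, next 50.7 CPM, ratio 0.710, at the limit after rounding). Tumour 20 was the low value for Skil (109.8 CPM, next 322 CPM, ratio 0.783). In the Cdkn1a-high class, tumour 1 had Col9a3 at 2.93 CPM with the next tumour at 91.6 CPM (ratio 0.839).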

How the results depend on the processing

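No gene passed an adjusted p under 0.05 in edgeR with relative log expression or upper quartile scaling, without the 50 most abundant genes in the scaling, without the filter or with at least 10 counts in all 9 tumours, or in limma-voom. Leaving out 1 tumour gave 0 to 1 higher and 0 to 0 lower calls. DESeq2 gave 359 and 247, of which 1 was in the p53 target list and 41 were members of other lists. All 12 libraries in 1 fit gave 33 and 4 (3 in other lists: Esr1, Id3 and Cytl1), and the continuous term gave 1 and 0. The numbers of genes with unadjusted p under 0.05 became 2149 higher and 1721 lower with no filter and 2192 and 1715 with all 12 libraries, where more genes were tested. They ran from 1101 to 1585 higher and from 770 to 1152 lower without 1 tumour. The 7 p53 targets became 4 in limma-voom, and 5 to 9 without 1 tumour.

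The log2 fold changes of 9 named genes turned sign, and the cause was not tested. Without 1 tumour, Cdkn2a ran from -0.0380 (without tumour 1) to 0.923, Col3a1 from -0.695 (21) to 2.21, Csn3 from -1.80 to 0.447 (17), Met from -2.25 (5) to 4.03, Plk2 from -0.0387 (27) to 1.37, Rpl23 from -0.997 to 0.0532 (4), Stat3 from -0.0502 (5) to 0.788, Trp53 from -0.313 to 0.234 (20; above 0 also without 5, 21 or 27) and Ei24 from -0.134 (27; below 0 also without 4, 5 or 24) to 0.105. With the continuous term Stat3 was -0.0194, Trp53 0.0501 and Ei24 -0.00524. Ei24 was also -0.0204 with relative log expression, -0.0620 with upper quartile scaling, -0.00905 with the stricter filter, -0.0208 in DESeq2 and -0.0438 in limma-voom. The signs of the other 96 named genes held under every alternative in which they were tested.

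As differences between classes in percentage points, leaving out 1 tumour moved the mitochondrial share from -1.55 to between -2.19 and 0.28 (0.282 without tumour 4) and the Rn7sk share from -5.51 to between -6.85 (without tumour 24, exact permutation p = 0.0286) and -1.84. It moved alignments outside genes to between 1.35 and 5.98 and alignments not unique to between -9.65 and -1.48. The p of 0.0286 follows from dropping the only tumour that overlapped in Rn7sk share, and it is unadjusted. With 4 tumours against 5, the smallest p an exact permutation can give is 0.00794. No paired analysis was possible because the classes share no replicate number in the labels. Genes under a few CPM rest on few counts, and a level of 0 allows up to 0.152 CPM before rescaling. In tumour 4 the limit is higher after rescaling, which took its Cdkn1a from 4.72 to 8.48 CPM.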

Other observations

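Counts for some of the gene lists not described above are given here, beside 7.38% higher and 5.84% lower over all genes. Among 25 genes of glycolysis and hypoxia, 3 were higher with p under 0.05 in edgeR (12%) and none lower, with a median log2 fold change of 0.37. They were Vegfa (1.34), the lactate exporter gene Slc16a3 (1.82) and the peptide hormone gene Adm (1.95). Of 14 Notch genes 3 were higher (21.4%), the ligand genes Dll4 (1.72) and Jag1 (1.77) and the target Hey2 (3.19). Of 24 core genes of PI3K-Akt-mTOR signalling, Rptor (1.16), Irs1 (1.38) and Pik3r2 (1.16) were higher and Irs2 (-1.81) lower with p under 0.05 (12.5% and 4.17%), all as log2 fold changes, and none was called after adjustment. Pik3r2, a regulatory subunit of PI3 kinase, was the 1 without overlap, at 172, 64.2, 72.6 and 60.3 against 20.6, 33.2, 47.2, 53 and 49.8 CPM. Of 20 brakes on that pathway 4 were higher (20%), Sesn2, Ddit4 (1.33), Foxo1 and Nprl3 (0.77), and none lower.

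Of 19 DNA repair genes 2 were lower with p under 0.05 (10.5%), Rad51ap1 (-1.25) and Exo1 (-1.23), and none higher, with a median of -0.55, or -0.11 without tumour 24. In the BCL2 family 1 of 12 genes was lower (8.33%), Bid (-1.52). Interferon-stimulated genes had 1 of 21 with p under 0.05 (4.76%), Stat2 (1.24). Their summed CPM was 274 to 2106 CPM in the Cdkn1a-high tumours and 157 to 2766 CPM in the Cdkn1a-low tumours, highest in tumours 4, 5 and 27, so it did not follow the class. In the list of skeletal muscle, 1 of 8 tested genes was lower, Acta1 (-3.73), and 1 higher, Tnni2 (2.43), with p under 0.05 (12.5% each way).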
